A study of Nothobranchius furzeri with 12 samples.

Results

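The 200 longest gene models of Nothobranchius furzeri, the turquoise killifish, whose short life has made it a model for ageing, were compared between brain and skin. The length of a gene was the number of nucleotides that the deposited counts and RPKM values (reads scaled to gene length and library total) imply, and the 200 greatest lengths were kept from the 23212 genes that had one, of 23546 identifiers in the table. Expression played no part in that choice beyond the need for at least 1 read. Both groups were of strain MZM-0410, which the design text writes as MZM-0401, at 39 weeks of age, with no treatment named in the labels. The comparison used 6 brain libraries (fish 6, 8, 24, 38, 41 and 46) and 5 skin libraries (fish 8, 12, 38, 41 and 46), each from total RNA made into a library with an Illumina TruSeq kit. The library labelled skin of fish 6 was left out because its content resembles brain, and its values are given apart. Totals were 17555681 to 22653360 reads in genes per brain library and 9100419 to 27094192 per skin library; the lowest total was that of skin of fish 46.

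In vertebrates the longest messenger RNAs encode giant proteins, among them the elastic proteins of the muscle sarcomere, linkers between cytoskeleton and membrane, large adhesion proteins and matrix components, and the scaffolds and ion channels of synapses. Nervous tissue is known, from mammals, for the use of many long genes, whereas muscle and epithelium each rely on a few giant structural proteins at very high levels. Length in that knowledge of long genes need not be the length used here, which is not stated to be exonic. A long model also gathers more reads than a short one at the same level, so counting error is smaller for it. The identifiers of the table could not be paired with gene names: 0 of 23546 matched a RefSeq table of 38438 killifish genes. The members are therefore called by their rank in length, the 2 leading ones in each direction also by identifier, and no role, position or sequence is given for any of them. Tissue labels could not be set against marker genes for the same reason.

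The models ran from 12575 to 88546 nucleotides, with a median of 14614, whereas the median gene had 2324 and the middle 50% of genes 1096 to 4237 nucleotides. The distribution was steep at its upper end: after 88546 and 67190 nucleotides the third model had 30370, 21 models exceeded 20000 and 106 were under 15000. At the threshold the last 3 models inside had 12585, 12583 and 12575 nucleotides and the first 3 outside 12565, 12562 and 12527, so the boundary separates nearly equal lengths. Reads were found for 199 to 200 of the 200 models in each brain and in each of the 5 skins. For 2 models (length ranks 109 and 177) counts were too low for the test, with 21 and 16 reads over the 6 brains and 58 and 140 reads over the 5 skins. The other 198 entered a test over 20149 genes.

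Long models were more often higher in brain than lower. Of the 198, 115 were higher in brain at a false discovery rate (FDR) of 0.05, or 58.1%, where 39.6% of all genes tested were (edgeR quasi-likelihood test with Benjamini-Hochberg adjustment over all genes). Lower in brain were 42, or 21.2%, where 36.8% of all genes were. Passing in neither direction were 41 of the 198, and 4773 of the 20149 genes tested. With a test for a change beyond 2-fold, 84 models were higher in brain, or 42.4% (27.1% of all genes), and 32 were lower, or 16.2% (23.6% of all genes). Every brain library lay above every skin library for 112 models, or 56.6% (35.9% of all genes), and below every skin library for 31, or 15.7% (28.3% of all genes). Tissues were sampled in bulk, so fewer cells of a type and less RNA per cell cannot be told apart.

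Changes were large in both directions. The median log2 fold change of the 198 models, brain over skin, was 0.80, with quartiles of -0.27 and 3.0, and the median of all genes tested was 0.06. A fitted change above 10-fold with FDR below 0.05 was found for 38 models higher in brain, or 19.2% (14.1% of all genes), and for 17 lower in brain, or 8.59% (8.95% of all genes). The share of strongly skin-biased models was thus close to the background, and the share of strongly brain-biased ones above it. No list test was made, and the counts describe these models beside the whole table. Directions depend on how libraries are scaled. With library size alone in place of trimmed mean of M-values (TMM) factors, the median of all genes moved to 1.25 and that of the long models to 1.98, so the models stood 0.73 above all genes, against 0.74 with TMM. The calls were then 156 higher (63.3% of all genes) and 27 lower in brain (18.7% of all genes). For a change beyond 2-fold they were 135 higher (48% of all genes) and 20 lower (12.7% of all genes). Of the called models, 85.2% were higher in brain with library size alone, where 77.2% of all called genes were. With TMM it was 73.2%, where 51.8% of all called genes were. With all 12 libraries as labelled, 70 models were higher in brain (24% of all genes) and 40 lower (31.8% of all genes) at FDR 0.05. Beyond 2-fold, 1 was then higher (0.94% of all genes) and 23 lower (16.7% of all genes).

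Genes of usual length at equal expression had lower log2 fold changes than the long models. Expression was taken as the mean over both tissues of log2 CPM (reads scaled to the TMM-adjusted library total, plus 0.5), so that a long and a usual gene in 1 class had like numbers of reads. Among the 10342 tested genes of usual length (the middle 50%), weighted to the expression classes of the long models, the median log2 fold change was -0.46, that is 1.26 below the long models. Of the usual-length genes so weighted, 25.8% were higher in brain and 49.7% lower at FDR 0.05, and 5.76% were higher and 8.47% lower by more than 10-fold. The distance of the long models from usual-length genes was 0.85 to 1.89 when brain was set against each of the 5 skins alone, largest against skin of fish 12 and smallest against skin of fish 46. When classes were formed on RPKM, and so on level per length in place of read number, the distance was 0.64 and the usual-length median turned positive, at 0.16. With library size alone in place of TMM the usual-length median was 0.74 and the distance 1.24, so the sign of the usual-length median depends on the setting, and in both settings the long models lay above it.

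The contrast was widest in the class of 2 to 4 on the log2 scale, where the median log2 fold change was 2.94 for 34 long models and 0.15 for 3681 usual-length genes. In the class of 4 to 6, the 68 long models had a median log2 fold change of 1.87, and 63.2% were higher in brain and 14.7% lower. In the same class, the 2702 usual-length genes had a median of -0.39, with 26.4% higher and 46.3% lower. In the class of 6 to 8, the 78 long models had a median of 0.51 and the 655 usual-length genes -0.75. In the class of 8 or more, the 8 long models had a median of 0.09, with 25% higher in brain and 37.5% lower. The 118 usual-length genes there had -1.94, with 9.32% higher and 82.2% lower. Under 2, where only 10 long models fell, the medians were 0.74 for long models and 0.62 for 3186 usual-length genes. The standard error of the log2 fold change was derived from the test statistic. Its median was 0.31 for long models and 0.22 for usual-length genes in the class of 4 to 6. In the class of 6 to 8 it was 0.19 for long models and 0.20 for usual-length genes.

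**Figure D1:**
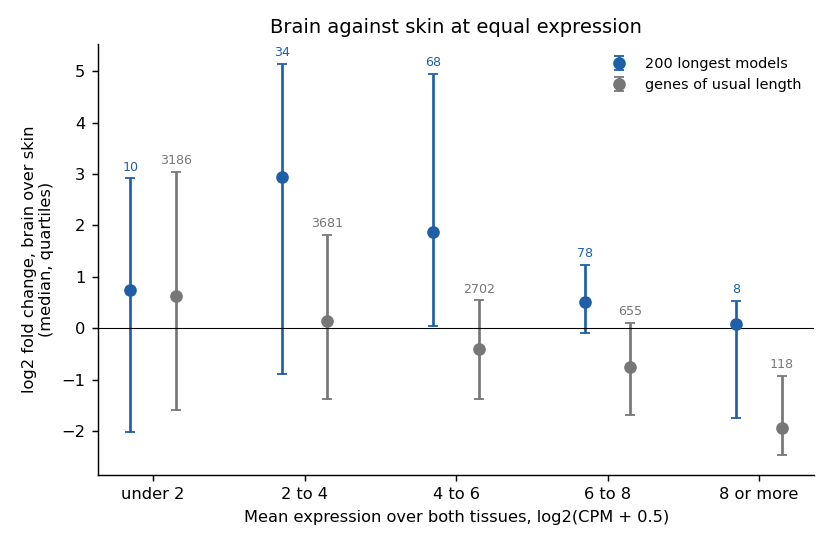
Log2 fold change of brain over skin (vertical axis) by class of mean expression over both tissues (horizontal axis, log2 scale), for the long models and for genes of usual length. Points are medians, bars the quartiles over genes and the numbers above them the genes in each class. The long models lie above the usual-length genes in every class, by least under 2 and by most between 2 and 4.

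Length as such had a graded relation to tissue only among the longer genes. Over 10 classes of equal size by length, the median log2 fold change was between -0.18 and 0.17 in the 9 shorter classes and 0.53 in the class of the longest genes, of 6913 nucleotides and more. In that class 51.6% of genes were higher in brain and 27.4% lower. Within the 200 there was no such order. From the longest 50 to the last 50, the median log2 fold change was 1.03, 0.69, 0.55 and 1.06, with 29, 29, 27 and 30 models higher in brain and 11, 10, 10 and 11 lower.

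Levels per length of the long models were higher in brain than in skin. On the TMM-scaled RPKM scale, on which all levels below are given, the median of the models' mean levels was 5.91 in brain and 2.72 in skin, whereas genes of usual length had medians of 4.22 in brain and 3.84 in skin. A mean level of at least 1 was reached in brain by 168 of the 198 models, or 84.8%, near the 80.5% of all genes tested. In skin it was reached by 131, or 66.2%, where 75.01% of all genes reached it. By library, the models at or above a level of 1 numbered 166 to 168 in brain, against 122, 111, 136, 134 and 139 in skin of fish 8, 12, 38, 41 and 46. The brains differed by no more than 2 models and the skins by 28, and the groups did not overlap. Per library, the median level of usual-length genes did not overlap either, at 4.04 to 4.34 in brain and 2.68 to 4.0 in skin. A separation of the tissues on this scale is therefore not particular to the long models.

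**Figure D2:**
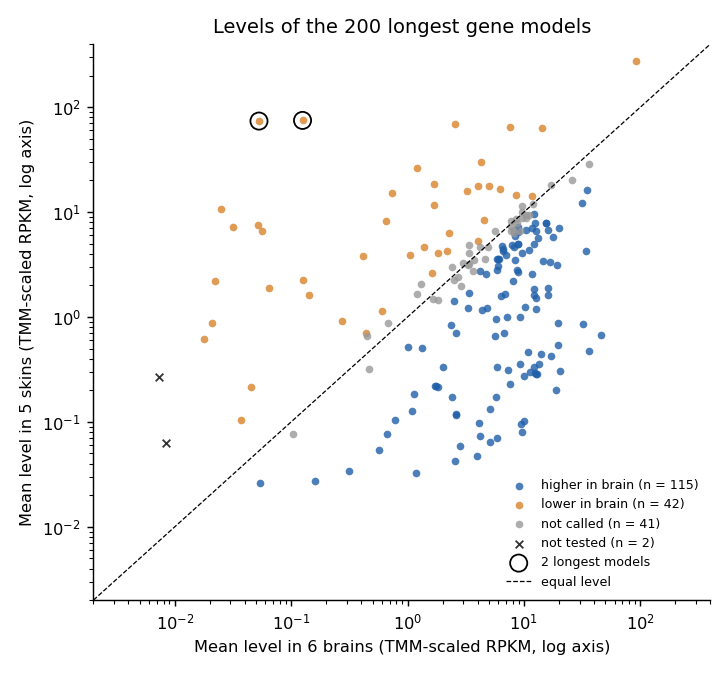
Mean level of each of the 200 longest models in 6 brains (horizontal axis) and 5 skins (vertical axis), TMM-scaled RPKM on log axes, coloured by the call at FDR 0.05. The 115 brain-higher models lie below the line of equal level, 42 lie above it as lower in brain, and the 2 longest models (ringed) are among the highest in skin and the lowest in brain.

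The brain-higher models ranged in skin from near absence to levels of up to 16.1. Their median level was 8.34 in brain and 1.0 in skin, and 57 of the 115 were below 1 in skin while 58 were at or above it. The 38 with more than 10-fold had a median level of 9.76 in brain and 0.28 in skin, and 37 of them were below 1 in skin. As a percentage of the brain mean, the median of these 38 was 0.936% in skin of fish 8, 1.17% in fish 12, 1.91% in fish 38, 6.17% in fish 41 and 1.55% in fish 46. Skin of fish 41 was thus several times above the other skins, and the part of brain-like signal in that library in these levels was not tested. For the library labelled skin of fish 6 this median was 97.0%.

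The first gene by the ranking of brain-higher models was Nfu_g_1_003654, length rank 71 with 15712 nucleotides. Its level was 8.69 to 11.1 over the 6 brains (median 9.31), against 0.0324, 0.0543, 0.0284, 0.261 and 0.0217 in skin of fish 8, 12, 38, 41 and 46. The groups stood far apart, with skin of fish 41 the highest skin at 2.72% of the brain mean. Its log2 fold change was 6.76 (SE 0.61, edgeR adjusted p = 7.94e-07), and 8.01 without skin of fish 41. Nfu_g_1_007978, the fifth longest model with 26976 nucleotides, had 8.66 to 9.80 over the brains (median 9.45), against 0.0189, 0.0259, 0.0166, 0.403 and 0.0126 in the skins in the same order. All brains were within 1.13-fold of each other, and skin of fish 41 was again the highest skin, at 4.31% of the brain mean. The log2 fold change of Nfu_g_1_007978 was 6.49 (SE 0.93, edgeR adjusted p = 3.96e-05), and 8.87 without skin of fish 41. As labelled, with the library of skin of fish 6 included, the changes were 2.74 for the first of these genes (edgeR adjusted p = 0.0966) and 2.55 for the second (edgeR adjusted p = 0.141), past the threshold in neither.

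The third longest model, with 30370 nucleotides, was also higher in brain, but not by so much. It had 11.1 to 14.4 over the brains (median 12.49), against 0.748, 0.653, 1.99, 2.50 and 1.73 in skin of fish 8, 12, 38, 41 and 46, and its log2 fold change was 3.03 (SE 0.35, edgeR adjusted p = 5.82e-06). Among the most abundant models in brain, length rank 179 (12874 nucleotides) had 41.9 to 50.4 over the brains (median 45.9), against 0.267, 0.313, 0.408, 2.08 and 0.265 in those skins, which gave 6.07 as log2 fold change (SE 0.64, edgeR adjusted p = 2.81e-06). The high value in skin of fish 41 was 4.52% of the brain mean, and without that library the change was 7.17. With all 12 libraries it was 2.50 (edgeR adjusted p = 0.104). Length rank 82 (15328 nucleotides) was abundant in both tissues, at 34.1 to 39.5 over the brains (median 36.6), against 25.7, 46, 26.9, 22.2 and 23.4 in the skins, where only fish 12 reached above the brains. The log2 fold change of 0.32 was not called (SE 0.19, edgeR adjusted p = 0.136), but without skin of fish 12 it was 0.55 (edgeR adjusted p = 0.000426). With library size alone it was 1.53 (edgeR adjusted p = 1.94e-06).

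The models lower in brain held the extremes of the whole set. The longest of all, Nfu_g_1_019261 with 88546 nucleotides, had levels of 0.0215 to 0.109 over the 6 brains (median 0.0449), against 42.3, 61.6, 96.4, 16.8 and 151 in skin of fish 8, 12, 38, 41 and 46. Skin of fish 46 was 9.0 times skin of fish 41, and the lowest skin was still above all brains. Its log2 fold change was -10.46 (SE 0.75, edgeR adjusted p = 1.2e-07). The second longest, Nfu_g_1_019276 with 67190 nucleotides, had 0.0953 to 0.157 over the brains (median 0.123), against 41.7, 60.1, 102, 17.1 and 152 in those skins, and its log2 fold change was -9.24 (SE 0.58, edgeR adjusted p = 4.73e-08). Both stayed called with all 12 libraries as labelled (edgeR adjusted p = 8.36e-05 for each).

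The 2 longest models had nearly equal levels in each skin. The level of the longest over that of the second was 1.02, 1.02, 0.942, 0.986 and 0.992 in skin of fish 8, 12, 38, 41 and 46, while the levels spanned 9.0-fold for the longest and 8.94-fold for the second. In the 6 brains the same ratio was 0.226 to 0.693, at 53 to 285 reads for the longest and 178 to 312 for the second. For the library labelled skin of fish 6 levels were 1.03 and 1.12 with a ratio of 0.925, so the ratio was just below those of the skins and the levels lay between those of the tissues. Whether the models share reads is not known from the sources used here. Another 2 models, singled out after their values were seen, ordered the 5 skins as these did (fish 46, 38, 12, 8 and 41 from high to low). That order, set by the longest model itself, was found for 4 of the 198 models, the 2 longest included, and for 90 of the 20149 genes tested. Length rank 35 (17376 nucleotides) had 0.404 to 0.921 over the brains, against 5.04, 7.49, 10.2, 3.12 and 15.1 in skin of fish 8, 12, 38, 41 and 46. Length rank 56 (16203 nucleotides) had 0.0521 to 0.0821 over the brains, against 1.17, 1.76, 2.70, 0.484 and 3.37.

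The fourth longest model, with 28406 nucleotides, was also far lower in brain. It had 0.0392 to 0.069 over the brains (median 0.050), against 6.93, 4.89, 8.63, 6.28 and 10.6 in skin of fish 8, 12, 38, 41 and 46, and its log2 fold change was -7.18 (SE 0.27, edgeR adjusted p = 1.9e-09). Its skins varied only 2.18-fold and in another order than those of the 2 longest. As a group, the 42 models lower in brain had a median level of 1.12 in brain and 7.37 in skin, and 22 of them reached at least 1 in both tissues. The 17 with more than 10-fold had a median level of 0.0651 in brain and 7.47 in skin.

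The highest level of any long model was found in both tissues at once. Length rank 49 (16613 nucleotides) had 37.7 to 184 over the brains (median 74.98), against 175, 183, 292, 405 and 314 in skin of fish 8, 12, 38, 41 and 46, and the brain of fish 6 overlapped the 2 lowest skins. The log2 fold change was -1.61 (SE 0.37, edgeR adjusted p = 0.00166), but -0.41 with library size alone (edgeR adjusted p = 0.308), so the call rests on TMM scaling. At the other end, 41 models were not called, with a median absolute log2 fold change of 0.23, and 37 of them were at a level of at least 1 in both tissues. The nearest to equality was length rank 30 (18135 nucleotides), at 8.24 to 8.88 over the brains (median 8.60), against 8.23, 8.93, 8.08, 8.32 and 9.31 in skin of fish 8, 12, 38, 41 and 46. Brains and skins overlapped within a range of 1.15-fold, and the log2 fold change was -0.02 (SE 0.11, edgeR adjusted p = 0.864). Length ranks 101 (14507 nucleotides) and 200 (12575 nucleotides) had log2 fold changes of -0.02 (SE 0.23, edgeR adjusted p = 0.926) and 0.04 (SE 0.17, edgeR adjusted p = 0.829). Only their means were near equal. Length rank 101 had 10.7 to 12.8 over the brains and 5.49 to 16.5 over the skins. Length rank 200 had 4.30 to 5.63 over the brains and 2.98 to 5.51 over the skins. Under library size alone these 3 models had log2 fold changes of 1.17, 1.15 and 1.21 and all were called higher in brain. The near equality of their means thus holds relative to the TMM scale only.

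The long models took a larger share of the reads in brain than in skin. A share of reads rests on library size alone. On that scale the median log2 fold change of all genes tested was 1.25, so a larger share in brain is not particular to the long models. They held 3.52 ± 0.126% of the reads in genes in brain (SD, n = 6) and 2.02 ± 0.679% in skin (SD, n = 5). By library the share was 3.37 to 3.68% in brain, against 1.70, 1.51, 2.23, 1.54 and 3.12% in skin of fish 8, 12, 38, 41 and 46, with every skin below every brain. The 2 longest models alone took 0.00117 to 0.00283% of the reads in brain and 0.457, 0.522, 0.927, 0.166 and 1.52% in those skins, which was 10.8 to 48.8% of all reads of the 200 models there. Without them the other members held 3.52 ± 0.127% in brain (SD, n = 6) and 1.30 ± 0.220% in skin (SD, n = 5). The skins then ranged from 0.990 to 1.60%, and their SD was 0.220, against 0.679 with the 2 longest. The 115 brain-higher models had 2.41 to 2.60% of the reads in brain and 0.196 to 0.311% in skin, a direction that follows from their choice in these same libraries. On the deposited RPKM, which removes length, the 200 models held 0.449 ± 0.0208% of the summed values in brain (SD, n = 6) and 0.130 ± 0.0296% in skin (SD, n = 5). That share likewise rests on the total of each library, without TMM factors, so it has the same limit. The library labelled skin of fish 6 had a share of 3.51%.

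**Figure D3:**
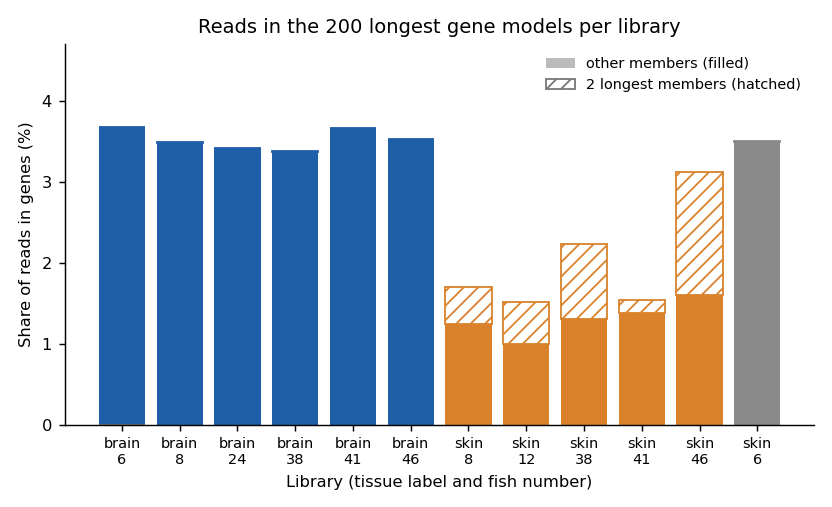
Share of reads in genes that fell in the 200 longest models (vertical axis, percent) in each library (horizontal axis), brains first, then the 5 skins, then in grey the library labelled skin of fish 6. Filled bars are the other members and hatched parts the 2 longest, which reach 1.52% in skin of fish 46 and are invisible in brain.

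Between fish of 1 tissue the long models varied little in brain and widely in skin. Their ranges were near those of all genes. At matched expression their spread in skin was larger, but among genes of at least 10 CPM in skin it was not. Over the 171 models that averaged 10 CPM or more in brain, the highest brain exceeded the lowest by a median of 1.19-fold. Of these models 157, or 91.8%, stayed within 1.5-fold. For all genes at that level the median range was 1.23-fold, and 87.5% stayed within 1.5-fold. Over the 141 such models in skin the median range was 2.43-fold, and for all genes 2.36-fold. At matched expression, with no test of the difference, the median standard deviation of log2 CPM in brain was 0.11 for long models and 0.12 for usual-length genes. In skin it was 0.58 for long models and 0.48 for usual-length genes. That matching was on the mean over both tissues, not on the skin level. Among genes of at least 10 CPM in skin, the median was 0.49 for long models, 0.49 for all genes and 0.51 for usual-length genes.

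Most long models moved in the same direction in single skin libraries. Relative to the mean of the 5 skins, their median log2 level was -0.47 in skin of fish 12 and -0.10 in fish 8, and 0.18, 0.07 and 0.26 in fish 38, 41 and 46. Genes of usual length had 0.12 in fish 12 and 0.02 in fish 8, and -0.03, 0.03 and -0.13 in fish 38, 41 and 46. In skin of fish 12, 100 of the 141 models, or 70.9%, were below the skin mean, where 44.8% of usual-length genes were. At their lowest of the 5 skins there were 78, or 55.3%, where 35.5% of all genes were. At their highest there were 22, or 15.6%, where 38.2% of all genes were. In skin of fish 46, 53 models were at their highest, or 37.6%, where 9.58% of all genes were. Over all genes, the shortest and longest classes differed most in skin of fish 12 and 46. In skin of fish 12 the shortest 10% of genes had a median of 0.29 and the longest 10% of -0.23, while in skin of fish 46 they had -0.17 and 0.06. The change with length was not graded throughout: skin of fish 46 stayed between -0.17 and -0.12 over the 7 shorter classes, and skin of fish 41 had 0.14 in the longest 10% but 0.07 for the 200 longest. Skin of fish 8 stayed between -0.05 and 0.06 over the 10 classes. In the 6 brains the medians of the long models lay between -0.03 and 0.02. The brain of fish 46 had 50 of 171 models at their highest, or 29.2%, where 17.9% of all genes were. The part of RNA quality in these trends was not tested, and leaving out 1 skin does not test it. Without skin of fish 12 the median log2 fold change of the long models was 0.67, or 0.57 above all genes. Without skin of fish 46 it was 0.82, or 0.78 above all genes. With all 11 libraries it was 0.80, or 0.74 above all genes.

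**Figure D4:**
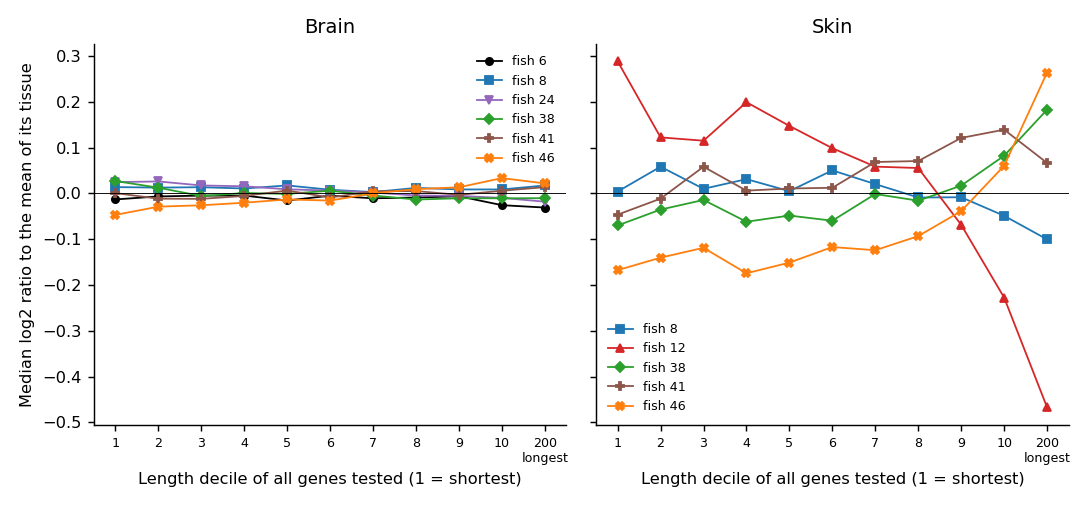
Median log2 ratio of a library to the mean of its tissue (vertical axis) by length class of all genes tested, from the shortest 10% to the longest 10%, with the 200 longest models at the right (horizontal axis), for genes of at least 10 CPM in that tissue. Brains stay within 0.05 of 0, whereas skin of fish 12 is lowest for the 200 longest, at -0.47, and skin of fish 46 is highest for the 200 longest, at 0.26.

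A few long models varied far more than the rest, and those described here were picked by their spread in these same data. Among models of at least 10 CPM in brain, 4 of 171, or 2.34%, ranged over more than 3-fold there (1.36% of all genes). In skin 52 of 141, or 36.9%, did so (35.5% of all genes). Length rank 104 (14453 nucleotides) had 1.09 to 10.9 over the brains (median 3.52), against 10.7, 9.21, 34.1, 19.2 and 78.1 in skin of fish 8, 12, 38, 41 and 46. Fish 46 was the highest in both tissues, and its brain lay within the range of the skins. The log2 fold change was -2.84 (SE 0.66, edgeR adjusted p = 0.00182). Length rank 144 (13485 nucleotides) followed the same fish, with 1.42 to 9.54 over the brains (median 3.55), against 6.03, 6.19, 20.9, 13.1 and 42.2 in those skins. Its log2 fold change of -2.14 was called with TMM (SE 0.62, edgeR adjusted p = 0.007), but under library size alone it was -0.96 (edgeR adjusted p = 0.156). The library labelled skin of fish 6 had 1.59 for the first and 1.48 for the second, near the lowest brains.

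Among the 141 models of at least 10 CPM in skin, length ranks 120 and 89 had the largest SD of log2 CPM there, and they were steady in brain. Models of lower skin level, where few reads stand behind a value, spanned larger folds between skins. Length rank 120 (14088 nucleotides) had 2.73 to 3.0 over the brains (median 2.86), against 0.664, 0.209, 2.68, 0.893 and 5.31 in skin of fish 8, 12, 38, 41 and 46. The skins spanned 25.4-fold, from below to above the brains. The log2 fold change of 0.55 was not called (SE 0.60, edgeR adjusted p = 0.42), though it was 1.35 without skin of fish 46 (edgeR adjusted p = 0.0332). With library size alone it was 1.72 (edgeR adjusted p = 0.0222). Length rank 89 (15140 nucleotides) had 8.62 to 9.82 over the brains (median 9.25), against 0.441, 0.0922, 1.09, 1.51 and 1.82 in those skins. All skins were below all brains, and the log2 fold change was 3.21 (SE 0.56, edgeR adjusted p = 0.000216), and as labelled with 12 libraries it was 1.89 (edgeR adjusted p = 0.0599).

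**Figure D5:**
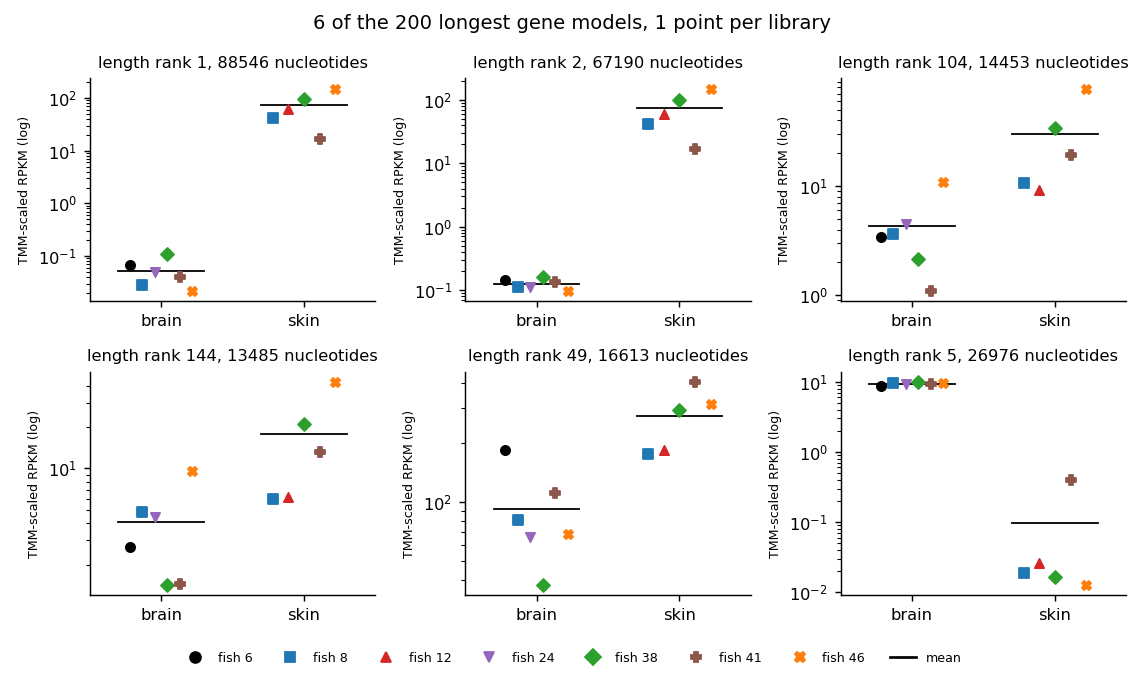
Levels of 6 long models in each library (vertical axes, TMM-scaled RPKM, log), brain left of skin, with 1 marker per fish and a line at the mean of the tissue. The 2 longest follow the same order of skins, the models of length rank 104 and 144 are highest in fish 46 in both tissues, and skin of fish 41 lies above the other skins for length rank 5.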

How the data were processed

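RNA-seq libraries of killifish brain and skin were deposited as 1 table of counts and RPKM by gene and library. Per the submitters' processing notes, featureCounts 1.4.3-p1, TopHat2 2.0.6 and CASAVA 1.8.4 are named, without role or order. Build, annotation, strand and the handling of shared reads are not stated in the labels or the file; reads of overlapping genes or near-identical copies may therefore be split. All deposited counts were whole, and library totals differed. The authors' RPKM, the count and the library's total gave 1 length per gene within a relative tolerance of 0.001 for all 23212 genes with a read; whether that length is exonic is not stated.

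Counts of 11 libraries were compared by tissue with edgeR 4.0.16 (R 4.3.3): TMM factors, its default filter, robust quasi-likelihood fits and Benjamini-Hochberg adjustment over all genes tested, with a threshold of 0.05, and a second test for a change beyond 2-fold. Levels are RPKM with TMM factors over all 12 libraries, 1.39 to 1.41 in brain and 0.550 to 0.699 in the 5 skins. The SE of a log2 fold change is its absolute value divided by the square root of the quasi-likelihood F, not a separately fitted standard error. DESeq2 1.42.0 and limma 3.58.1 on log2(RPKM + 1) and log2(RPKM + 0.1) were alternatives. The scripts were tested on simulated data. The members, lists and rules were chosen with earlier results of these data known. The members named were the 2 with the largest called change in each direction (at least 10 CPM in the higher tissue, groups not overlapping), the 5 longest, the 3 highest in each tissue, the 3 nearest to equal and the 2 of largest spread in each tissue. Lists of marker and pathway genes were not applied, since no identifier matched a name.

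Fish numbers come from the labels, and 8, 38, 41 and 46 occur in both tissues. The labels do not say whether samples came from separate tanks or days. No column of the table was without a sample.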

Additional observations from a re-analysis of the deposited data

Results flagged for a closer look

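Among 46 sets of 5 or 6 levels, 5 had a single library far away from the rest. A chance rate of about 1 in 20 cannot be set beside this number. Many of the models were chosen by their change, level or spread in these same data, and 1 library can recur. In 3 of the 5 sets the library was skin of fish 41, in models that are high in brain. It had a level of 0.261 for length rank 71, where the other skins had 0.0217 to 0.0543, of 0.403 for length rank 5, where they had 0.0126 to 0.0259, and of 2.08 for length rank 179, where they had 0.265 to 0.408. Skin of fish 12 had 46 for length rank 82, where the other skins had 22.2 to 26.9. The brain of fish 46 had 10.9 for length rank 104, where the other brains had 1.09 to 4.45. In the library labelled skin of fish 6, which entered no comparison, the 115 brain-higher models reached 96.5% of the brain level (median), where the 5 skins had 10.7 to 19.8%.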

How the results depend on the processing

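Leaving out each of the 11 libraries in turn gave 57.1 to 59.6% of the long models higher in brain at FDR 0.05, 19.7 to 23.7% lower, 40.4 to 43.1% higher and 14.6 to 16.7% lower beyond 2-fold, a median log2 fold change of 0.67 to 0.85, 0.57 to 0.78 above all genes and 1.01 to 1.33 above usual-length genes at equal expression. In those 11 fits 71.5 to 74.7% of the called models were higher in brain, where 51.4 to 53.4% of all called genes were. DESeq2 size factors, DESeq2 itself, no filter, the 100 or 400 longest and a narrower usual length kept these results within 1.5 times or the spread between skins. With all 12 libraries, 35.4% were higher in brain (24% of all genes) and 0.505% higher beyond 2-fold (0.94% of all genes). Library size alone gave 13.6% lower (18.7% of all genes), and beyond 2-fold 68.2% higher (48% of all genes) and 10.1% lower (12.7% of all genes). The median log2 fold change was then 1.98. For limma the deposited RPKM was used, without TMM factors. It gave 12.6% lower and a median of 1.47, 0.81 above usual-length genes, with a pseudocount of 1, and 13.1% and 1.92 with 0.1. The medians of all genes were then 0.89 and 1.27, and 78.8% and 79.3% of the long models were higher in brain. Of the called models 86.2% and 85.8% were higher in brain, where 78.5% and 78.7% of all called genes were. Expression classes in RPKM gave 0.64 above usual-length genes. As a share of summed RPKM the models held 0.449% in brain and 0.130% in skin. The range over skins of long minus usual-length deviations was 0.98, and 0.60 for genes of at least 1 CPM. Apart from the settings whose construction changes the quantity, the cause was not tested. The mean share of reads was 3.49 to 3.55% in brain and 1.75 to 2.15% in skin when 1 library was left out, a choice added after seeing the data.

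With the fish number as a replicate block, 57.6% of the models were higher in brain and 21.7% lower, with a median log2 fold change of 0.70. Of the called models 72.6% were higher in brain, where 53.1% of all called genes were. With the main fit, 112 of the 115 higher and 40 of the 42 lower calls were shared. Of the 16 models described singly, the blocked fit changed the call of length rank 82 only and turned length rank 200 to -0.057. For length rank 82 it gave 0.55 (edgeR adjusted p = 0.0198). Fish 6, 12 and 24 had 1 library each in that fit, so its tissue contrast rested on fish 8, 38, 41 and 46. Without a block but also without skin of fish 12, length rank 82 had 0.55 and length rank 200 -0.082. The block and the loss of that library cannot be told apart in these 2 models. The 4 shared fish numbers do not by themselves establish pairing. Deviations of same-numbered libraries correlated at 0.199 (fish 8), 0.107 (38), 0.09 (41) and 0.351 (46). Skins of fish 8, 41 and 46 each correlated best with the brain of the same number, and skin of fish 38 with the brain of fish 46. Near-equal models changed sign: length rank 30 had 1.17 and length rank 101 1.15 with library size alone, and leaving out 1 library gave -0.052 to 0.028 for length rank 30, -0.21 to 0.11 for length rank 101 and -0.082 to 0.13 for length rank 200. Skin depth of 9100419 reads in fish 46 and 2 reads in that library for the brain-higher models of length ranks 5 and 71 limit the largest fold changes.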
